A study of Bos taurus with 10 samples.

Results

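DNA replication and repair genes were examined in RNA of bovine embryos and of bovine tissues. The set holds 49 genes, listed by symbol with earlier results of these data known: the replicative helicase and its loaders, the sliding clamp and its loader, the replicative polymerases and primase, single-strand binding proteins, enzymes that join or untwist strands, enzymes that supply deoxynucleotides, and proteins of mismatch repair, double-strand break repair and cohesion. Of these 49 genes, 22 had a value, read by 27 probe sets, out of 6732 genes and 10186 probe sets with values. The other 27 genes, among them all of MCM2 to MCM7, are not analysed here because the values used held no probe set with their symbol alone. The platform lists 80 probe sets for the 49 genes. Probe sets without a value were blank on every array, for reasons not stated. Where several probe sets read a gene, it is represented by the one with the highest mean intensity over the 10 arrays.

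The RNA came from pools of embryos produced by in vitro fertilization (IVF, fertilization of oocytes outside the animal) and from spleen, lung, liver, kidney, heart, muscle and brain, tissues that the series title describes as adult. It was hybridised to a human expression array, so each bovine transcript was read by probes designed for a human gene, and genes carry human symbols here. There were 3 embryo arrays and 1 array of each of the 7 tissues. Breed, sex, age of the animals, stage of the embryos and any treatment were not stated in the labels. Nor was whether the 3 embryo arrays were separate pools. It is therefore unknown whether these 3 arrays differ by more than technical noise. The p-values for embryos against tissues rest on that scatter and on the differences among the 7 tissue arrays. The spread among the 7 tissue arrays is a spread between tissues.

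Before a cell divides, the origin recognition complex and its partners load the MCM helicase onto DNA, and CDC45 and the GINS complex then switch it on. Primase lays down short primers, replication factor C opens the PCNA ring and closes it around DNA, and polymerases delta and epsilon copy the strands while RPA coats single-stranded DNA. Ribonucleotide reductase makes the deoxynucleotides, and mismatch and break repair proteins mend copying errors and broken ends. Early embryos divide without much growth and carry transcripts of many of these proteins from the egg, whereas most cells of adult brain, heart and muscle no longer divide.

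Intensities are given after quantile normalization, which gives every array the same distribution, with a lower quartile of 72.1 and a median of 145.7. Differences are on the log2(intensity + 71) scale, embryos minus tissues, and understate the change of dim probe sets. Median deposited intensities ran from 99.2 in liver to 221 in the third embryo array. The first and second embryo arrays had a rank correlation of 0.94 with each other over all probe sets, and of 0.83 and 0.88 with the third, while the 7 tissues reached at most 0.79, between lung and spleen. The third embryo array and muscle stood apart together: on 203 of the 10186 probe sets they were the 2 highest arrays, the lower of them at least 2 times the next array, against at most 6 probe sets for any other pair of an embryo and a tissue array. None of the 22 genes was among the 203 and 2 other repair genes were, RAD51D (490 and 542, with 39.3 to 90.5 elsewhere) and LIG3 (319 and 324, with 26.1 to 73.7 elsewhere). The 5′ to 3′ signal ratio of the GAPDH control, which falls as RNA breaks down, was 0.461, 0.488 and 0.463 for embryos and between 0.287 and 0.471 for tissues, and its part in the results was not tested. Of the markers fixed for single tissues, 7 of 10 brain, 6 of 7 heart, 8 of 10 liver and 8 of 10 skeletal muscle genes were brightest in their own tissue, against 2 of 6 for lung, 2 of 5 for kidney and 1 of 3 for spleen. A dim probe set may mean a poor match to bovine sequence as well as little RNA, and with whole tissues or pooled embryos fewer cells of a type and less RNA per cell cannot be told apart.

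**Figure D1:**
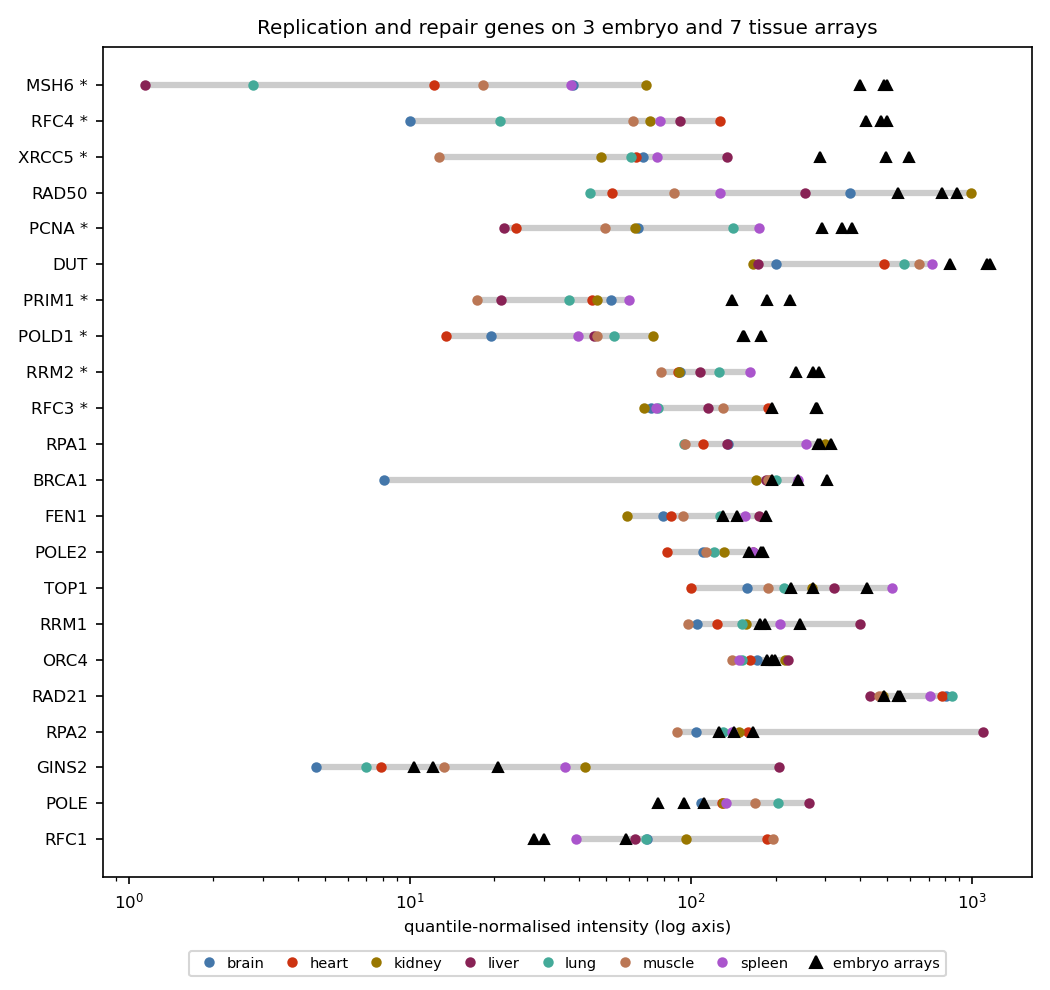
Quantile-normalised intensity (log axis) of the 22 replication and repair genes on each array, ordered by their difference; coloured circles are the 7 tissues, grey bars their range and black triangles the 3 embryo arrays. An asterisk marks the 8 genes past an adjusted p of 0.05; in those 8 and in DUT all 3 triangles lie to the right of every circle.

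The series title contrasts embryos with adult tissues, and in that comparison 8 of the 22 genes rose in embryos and none fell. They were MSH6, RFC4, XRCC5, PCNA, PRIM1, POLD1, RRM2 and RFC3, with differences from 2.50 for MSH6 down to 0.91 for RFC3. Over all 10186 probe sets 5.46% were called higher and 1.76% lower (limma, Benjamini-Hochberg adjusted p under 0.05), and over the brightest probe set of each of 6732 genes 5.01% and 1.77%. The median difference of the 22 genes was 0.61, against -0.05 over all probe sets. Because the set was listed with earlier results of these data known, these counts and medians describe it and are no independent support. For 9 of the 22 genes every embryo value exceeded every tissue value, as for 9.43% of all probe sets and 8.69% of the brightest per gene. None of the 22 had every embryo value under every tissue value, as 5.52% and 5.66% had. With the first embryo array, brain or spleen left out, 2, 1 and 1 did. No share of all probe sets is given for these leave-outs, so these counts cannot be set against one.

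These calls treat the 3 embryo arrays as separate samples. With the embryo arrays averaged and counted as 1 sample, limma called none of the 22 genes (adjusted p from 0.146 to 0.992), 8 of the 22 had an unadjusted p under 0.05, all higher (4.73% of all probe sets), and 3 of all 10186 probe sets (0.0295%) were called, also higher. An exact two-sided permutation test was run over the 120 ways to choose 3 of 10 arrays. In it 8 of the 22 genes reached the smallest p it allows, 0.00833, as did 884 of all 10186 probe sets. With 884 at that p, no adjusted p could be under 0.096, so the test could call no gene. Leaving out embryo array 1, 2 or 3 left 3, 3 and 6 of the 22 genes called higher, and without the third embryo array and muscle 5 were. Calls over all 10186 probe sets fell too. They were 203, 170 and 328 higher without embryo array 1, 2 or 3, against 556 with all arrays. Without the third embryo array and muscle 283 probe sets were called higher.

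**Figure D2:**
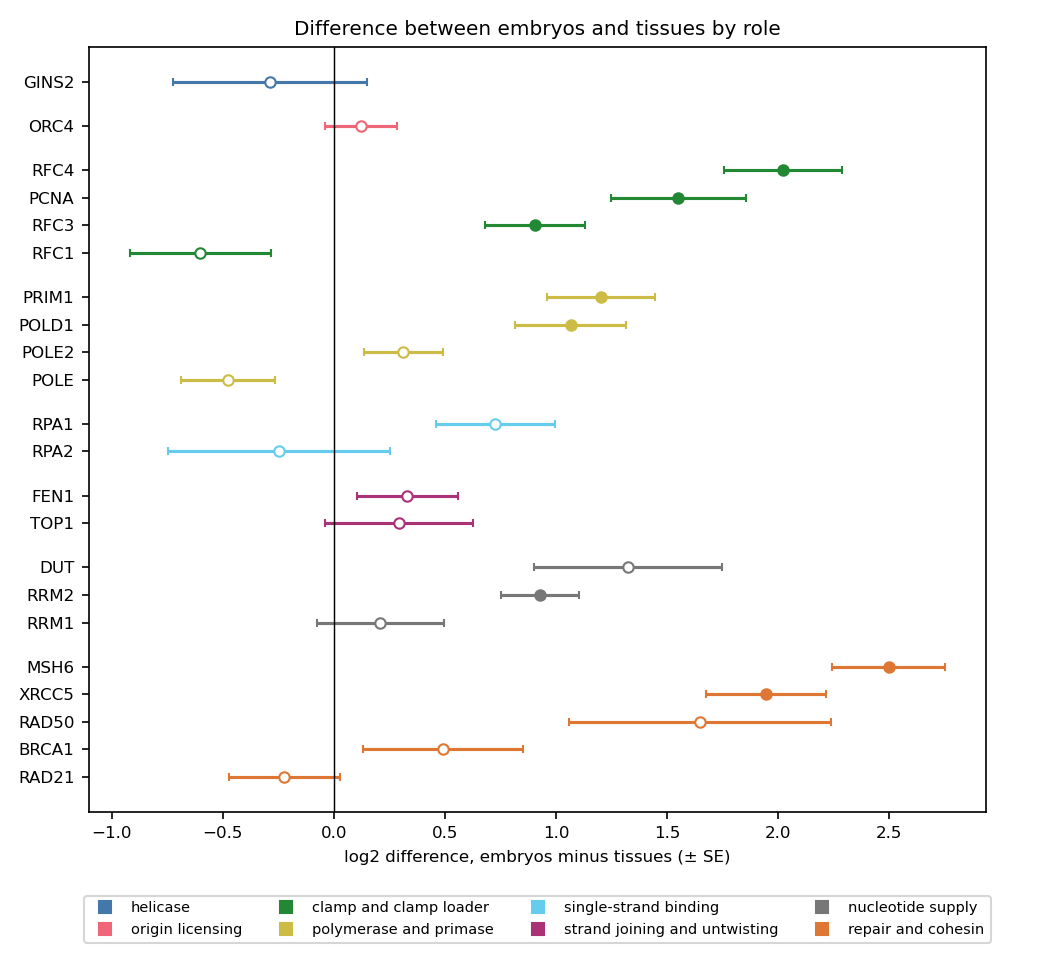
Log2 difference between the 3 embryo arrays and the 7 tissue arrays for each gene, with its standard error, grouped by role. Filled circles mark genes past an adjusted p of 0.05, which lie among the clamp and clamp loader, polymerase and primase, nucleotide supply and repair genes.

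Of the clamp and its loader, 4 of 6 genes were measured and 3 rose. RFC4, a small subunit of the replication factor C clamp loader, read 497, 419 and 473 on the 3 embryo arrays and from 10.04 in brain to 127 in heart, with a median of 71.5 in tissues. The dimmest embryo value was 3.30 times the brightest tissue value, and the difference was 2.02 ± 0.27 (SE, limma adjusted p = 0.000761). PCNA, the ring that holds polymerases on DNA, read 346, 374 and 293 in embryos and from 21.6 in liver to 175 in spleen, with a median of 63.3 in tissues. Lung, at 141, came next to spleen, the other 5 tissues lay at or under 64.6, and no tissue reached the embryo values. The PCNA difference was 1.55 ± 0.30 (SE, limma adjusted p = 0.00947), with adjusted p = 0.0691 without the first embryo array, 0.0839 without the second and 0.0735 without the third embryo array and muscle.

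RFC3, a further small subunit of the loader, read 195, 279.9 and 278 in embryos and from 67.9 in kidney to 188 in heart, with a median of 76.4 in tissues, so its lowest embryo value was just above heart. Its difference was 0.91 ± 0.22 (SE, limma adjusted p = 0.0304), and it was not called when embryo array 1, 2 or 3 was left out (adjusted p = 0.0739, 0.196 and 0.146), nor without kidney, without lung or without the third embryo array and muscle (0.0509, 0.0504 and 0.153). The other RFC3 probe set read 106, 124 and 215 in embryos against 92.5 in heart to 208 in muscle, so that only the third embryo array exceeded every tissue, and the mean of both was not called either (adjusted p = 0.131). RFC1, the large subunit of the same loader, was the lowest of the 22 in its difference, at -0.60 ± 0.32 (SE, limma adjusted p = 0.318). It read 58.6, 29.9 and 27.7 in embryos against 196 in muscle, 187 in heart and 39.1 to 96.1 in the other tissues, with the first embryo array inside the tissue range.

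Of the polymerases and primase, 4 of 9 genes were measured and 2 rose. PRIM1, the catalytic subunit of primase, read 187, 224 and 140.4 in embryos and from 17.3 in muscle to 60.0 in spleen, with a median of 44.5 in tissues. Every tissue value was under the array's lower quartile and every embryo value was above it. The difference was 1.20 ± 0.24 (SE, limma adjusted p = 0.0104), with adjusted p = 0.0808 and 0.126 without the first and the second embryo array. POLD1, the catalytic subunit of polymerase delta, read 153, 177 and 154 in embryos and from 13.5 in heart to 73.6 in kidney, with a median of 45.3 in tissues. Here too the groups did not overlap, at 1.07 ± 0.25 (SE, limma adjusted p = 0.023), and the call was lost when embryo array 1, 2 or 3 was left out (adjusted p = 0.112, 0.172 and 0.0892), without the third embryo array and muscle (0.0814) and with no offset (0.0548).

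The subunits of polymerase epsilon did not pass. POLE, its catalytic subunit, read 111, 94.4 and 76.6 in embryos and from 109 in brain to 263 in liver, with a median of 133 in tissues, a difference of -0.48 ± 0.21 (SE, limma adjusted p = 0.224). The second and the third embryo array lay under every tissue and the first did not. POLE2, an accessory subunit, read 180.2, 160.3 and 178 in embryos and from 82.2 in heart to 166 in liver, with a median of 121 in tissues, a difference of 0.31 ± 0.18 (SE, limma adjusted p = 0.352). Its embryo values overlapped those of liver and spleen.

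The helicase and origin groups were left with 1 measured gene each, and neither gene passed. GINS2, a subunit of the GINS helicase activator, read 10.4, 12.1 and 20.5 in embryos and from 4.62 in brain to 206 in liver, with a median of 13.2 in tissues. Liver stood alone at the top, every other tissue and all 3 embryo arrays were under the lower quartile, and the difference was -0.29 ± 0.44 (SE, limma adjusted p = 0.751). ORC4, a subunit of the origin recognition complex, had the narrowest tissue range of the 22 genes as a ratio, from 140.0 in muscle to 221 in liver, with a median of 163, a ratio of 1.58. Its embryo values of 199, 186 and 194 fell within that range, a difference of 0.12 ± 0.16 (SE, limma adjusted p = 0.72).

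Of the RPA complex, which coats single-stranded DNA, 2 of 3 subunits were measured and neither passed. RPA1 read 287, 282 and 314 in embryos and from 94.3 in lung to 301 in kidney, with a median of 134 in tissues, a difference of 0.73 ± 0.27 (SE, limma adjusted p = 0.137). Kidney and spleen, at 301 and 257, lay close to the embryos, and the other 5 tissues were at or under 135. RPA2 read 142, 166 and 126 in embryos and 1095 in liver, while the other 6 tissues ran from 89.2 to 159. Its difference of -0.25 ± 0.50 (SE, limma adjusted p = 0.813) became 0.12 (limma adjusted p = 0.685) without the liver array.

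FEN1 and TOP1 were the measured genes of strand joining and untwisting, 2 of 3, and did not pass. FEN1, the nuclease that trims Okazaki fragment flaps, read 129.9, 145 and 185 in embryos and from 59.2 in kidney to 175 in liver, with a median of 93.9 in tissues, a difference of 0.33 ± 0.23 (SE, limma adjusted p = 0.461). TOP1, a topoisomerase that relaxes DNA ahead of polymerases, read 424, 271 and 227 in embryos and from 99.8 in heart to 518 in spleen, with a median of 214 in tissues, a difference of 0.29 ± 0.33 (SE, limma adjusted p = 0.673). For both genes the embryo values lay inside the tissue range except the third FEN1 value.

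Of the genes of nucleotide supply, 3 of 5 were measured and 1 rose. RRM2, the small subunit of ribonucleotide reductase, read 272, 285 and 236 in embryos and from 78.3 in muscle to 162 in spleen, with a median of 91.7 in tissues. Spleen was followed by lung at 126, the order seen for PCNA, and all embryo values were above both. The difference was 0.93 ± 0.18 (SE, limma adjusted p = 0.00762), with adjusted p = 0.0607 and 0.0773 without the first and the second embryo array. RRM1, the large subunit, did not pass: it read 183, 245 and 176 in embryos and from 97.4 in muscle to 399 in liver, with a median of 151 in tissues, a difference of 0.21 ± 0.29 (SE, limma adjusted p = 0.729). On the other RRM1 probe set the embryos read 19.8, 1177 and 22.8 and the tissues 18.6 to 62.5. The second embryo array was therefore far above the first and the third for that probe set, which as deposited read 13.5, 1254 and 26.9.

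DUT, the dUTPase that keeps uracil out of DNA, did not pass although its groups did not overlap. On its brightest probe set the embryos read 836, 1156 and 1133 and the tissues ran from 166 in kidney to 722 in spleen, with a median of 486, a difference of 1.32 ± 0.42 (SE, limma adjusted p = 0.0867). On that probe set tissues fell in a low group of kidney, liver and brain, at 166, 173 and 201, and a high group from 486 in heart upward. On the second probe set the embryos read 298, 333 and 248 against 51.3 to 165 in tissues, a rise, at 1.14 ± 0.25 (SE, limma adjusted p = 0.0154). The third read 174, 227 and 197 against 49.7 in lung to 182 in brain, which overlapped, at 0.51 ± 0.24 (SE, limma adjusted p = 0.267). Its order of tissues thus differed from that of the brightest probe set. The mean of the 3 probe sets was called higher (0.99, limma adjusted p = 0.016). So was the brightest among probe sets above the 75th percentile on at least 3 arrays (limma adjusted p = 0.0495). DUT passed that filter on its heart, lung, muscle and spleen values too. The filter can keep other probe sets on their 3 embryo values alone, so this call is no further support.

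**Figure D3:**
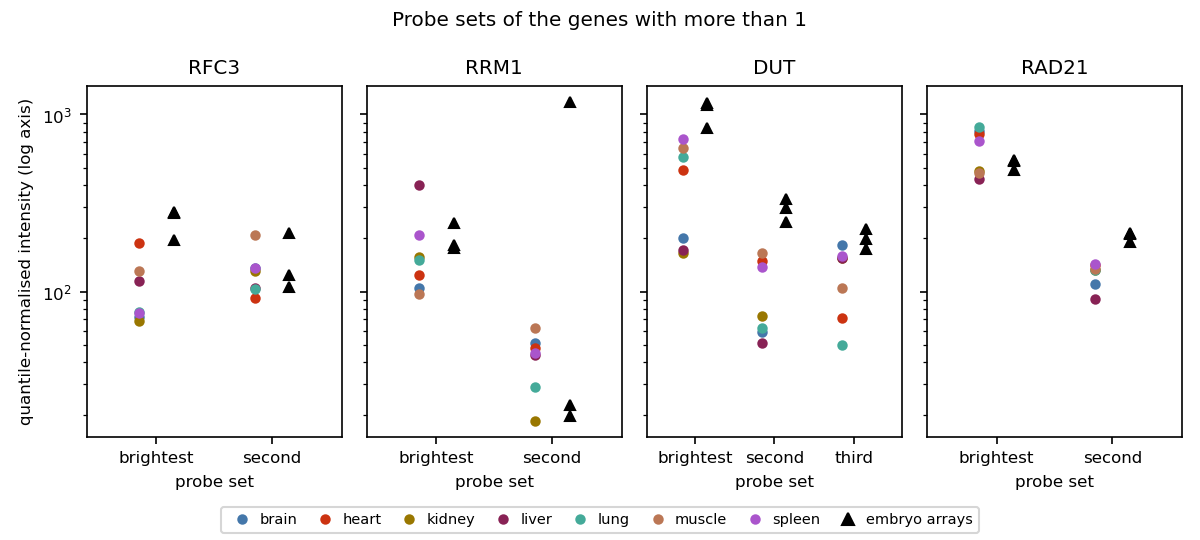
Quantile-normalised intensity (log axis) of every probe set of the 4 genes with more than 1; circles are the 7 tissues and black triangles the 3 embryo arrays. For RFC3 and RAD21 the probe sets place the embryos differently against the tissues, and for the second RRM1 probe set a single triangle stands at 1177 above the others at 19.8 and 22.8.

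Of the repair and cohesin genes, 5 of 7 were measured and 2 rose. MSH6, a mismatch recognition protein, had the largest difference of the 22 genes: it read 488, 499 and 399 in embryos and from 1.14 in liver to 69.1 in kidney, with a median of 18.2 in tissues. All 7 tissues were under the lower quartile of their arrays, and the lowest embryo value was 5.77 times the highest tissue value. Its difference was 2.50 ± 0.25 (SE, limma adjusted p = 0.000116). XRCC5, the Ku80 subunit that binds broken DNA ends, read 596, 492 and 287 in embryos and from 12.7 in muscle to 134 in liver, with a median of 63.9 in tissues. The third embryo array was lower than the first and second, yet 2.14 times liver, the highest tissue, and the difference was 1.94 ± 0.27 (SE, limma adjusted p = 0.00107). MSH6, XRCC5 and RFC4 were called higher in each of the 10 fits that left out 1 array.

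RAD50, a subunit of the complex that processes broken ends, read 781, 882 and 545 in embryos and from 43.6 in lung to 989.7 in kidney, with a median of 127 in tissues. Kidney was above all 3 embryo arrays and brain, at 368, came next among tissues. The difference was 1.65 ± 0.59 (SE, limma adjusted p = 0.127), and without the kidney array it was 2.01 (limma adjusted p = 0.018). BRCA1, a scaffold of repair by homologous recombination, read 194, 241 and 306 in embryos, 8.06 in brain and 171 to 241 in the other 6 tissues, a difference of 0.49 ± 0.36 (SE, limma adjusted p = 0.493). RAD21, the cohesin subunit cut when sister chromatids part, read 485, 553 and 546 in embryos and from 434 in liver to 848 in lung, with a median of 709.8 in tissues, a difference of -0.22 ± 0.25 (SE, limma adjusted p = 0.67). On its other probe set the embryos read 214, 211 and 191 and the tissues 90.5 to 144, so there the embryos were above every tissue, at 0.49 ± 0.15 (SE, limma adjusted p = 0.0803). The mean of both was 0.14 (limma adjusted p = 0.731).

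The 14 genes that did not pass had differences from -0.60 for RFC1 to 1.65 for RAD50, of which 9 were positive, and adjusted p from 0.0867 to 0.813. Across the 22 genes, the coefficient of variation of the 3 embryo arrays ran from 3.25% for ORC4 to 44.5% for RFC1, with a median of 17.7%. The ratio of the highest to the lowest tissue had a median of 4.68 and reached 60.6 for MSH6, where the lowest tissue read 1.14. For 11 of the 22 genes the tissues spread over 5-fold or more.

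Each tissue was also set against the embryos in a fit with 8 groups, whose spread comes from the 3 embryo arrays alone and in which the single tissue arrays are assumed to vary like them. The 7 comparisons share those embryo arrays. Of 154 pairs of gene and tissue, 59 were called higher in embryos and 5 lower. Leaving out embryo array 1, 2 or 3, these counts were 19, 3 and 67 higher and 4, 2 and 6 lower. No share of all probe sets is given for these leave-outs. Whether the pairs moved more than other probe sets did was therefore not tested.

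Against brain, 11 of the 22 genes were higher in embryos and none lower, where 10.9% and 13.5% of all probe sets were. Heart had 10 higher and 1 lower (11.5% and 14.1% of all probe sets), muscle 9 and 1 (13.6% and 12.2%), lung 9 and 0 (6.51% and 9.68%) and kidney 7 and 0 (7.13% and 8.39%). Liver had 9 higher and 3 lower, against 12.8% and 13.5% of all probe sets. Spleen had 4 higher and none lower, where 4.58% and 7.75% of all probe sets were, and the 4 were RFC4, POLD1, MSH6 and RAD50. The median difference of the 22 genes was 0.84 against brain and 0.21 against spleen, and this gap between tissues was not tested.

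MSH6 and RFC4 were called higher in embryos against all 7 tissues. MSH6 differences ran from 1.92 against kidney to 2.88 against liver, and RFC4 differences from 1.43 against heart to 2.72 against brain. PCNA was called higher against 6 tissues and not against spleen (0.73, limma adjusted p = 0.0861), and POLD1 against 6 and not against kidney (0.68, limma adjusted p = 0.0504). PRIM1, RRM2, XRCC5, RAD50 and RPA1 were each called against 5 tissues. RPA1 was not called against kidney (-0.02, limma adjusted p = 0.93) or spleen (0.16, limma adjusted p = 0.566), and RRM2 was not called against lung or spleen (0.77 and 0.52, limma adjusted p = 0.0521 and 0.137). RFC3 and DUT were called against 3 tissues each, POLE2 against heart alone and BRCA1 against brain alone.

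The 5 lower calls fell on 4 genes and 3 tissues. RPA2, GINS2 and POLE were lower in embryos than in liver, by 2.44 (limma adjusted p = 0.00305), 1.70 (limma adjusted p = 0.00176) and 1.02 (limma adjusted p = 0.0254) on the log2 scale. RFC1 was lower than in heart and in muscle, by 1.24 and 1.29 (limma adjusted p = 0.0262 and 0.0236).

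**Figure D4:**
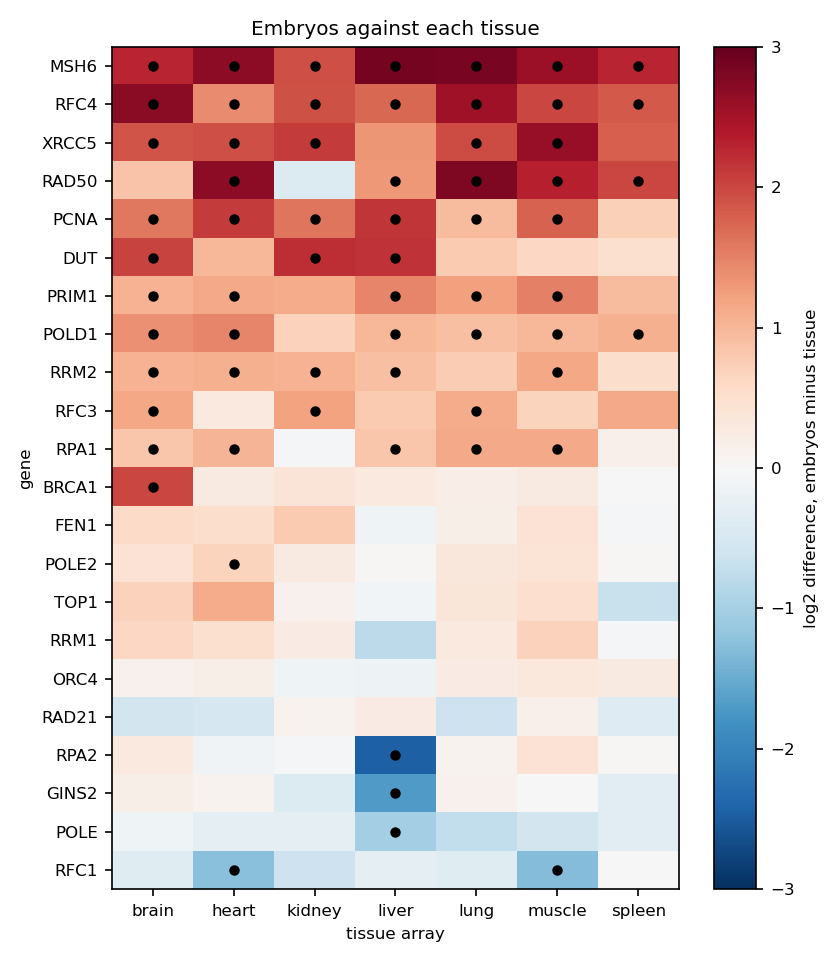
Log2 difference between the mean of the 3 embryo arrays and each tissue array (columns) for the 22 genes (rows, ordered by their difference against all tissues); red is higher in embryos, blue lower, and a dot marks an adjusted p under 0.05 in the fit with 8 groups. The top rows MSH6 and RFC4 carry a dot in every column, and spleen has 4 dots.

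Among the adult tissues alone, liver and spleen most often held the highest value. Of the 22 genes, 8 were brightest in liver (GINS2, ORC4, POLE, POLE2, RPA2, FEN1, RRM1 and XRCC5) and 6 in spleen (PCNA, PRIM1, TOP1, RRM2, DUT and BRCA1), where 16.9% and 14.5% of all probe sets were. Kidney held the highest value for 4 and heart for 2, where 11.8% and 12.8% of all probe sets were. Muscle and lung held it for 1 each and brain for none, where 17.8%, 10.7% and 15.5% of all probe sets were, so muscle had the largest share of all probe sets and 1 of the 22 genes. With the values as deposited, brain held 3, liver 5 and lung none. With 1 array per tissue these orders are descriptions and were not tested.

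Markers of dividing cells, a list chosen with earlier results of these data known, were also measured. Of 10 such markers measured of 16 listed, 6 rose and none fell, and their summed intensity lay between 3871 and 4095 in embryos and between 931 and 2138 in tissues, with spleen highest. Of the 4 not called, MKI67 read 351, 346 and 234 in embryos against 880 in liver and 547 in spleen, and CENPF 147, 161 and 121 against 114 to 193 in tissues. For 6 granulosa and cumulus markers, of the cells around the egg, the sum was 568 to 955 in embryos and 385 to 869 in tissues, with none called. For 3 oocyte markers it was 609 to 1198 in embryos and 174 to 901 in tissues, with 1 called higher; both upper ends were the third embryo array and muscle, where DAZL read 586 and 544, against 121 to 221 on the other 8 arrays. For 6 lymphoid and leukocyte markers the sum was 1225 in spleen, 989 in liver and 454 to 592 in the other tissues, and 553 to 617 in embryos. The part of any of these in the results was not tested.

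Other genes of the same processes were measured too. Of 69 measured genes from lists of other replication, repair, cohesin and condensin genes, 5 rose and 1 fell, which is 7.25% and 1.45% against the 5.46% and 1.76% of all probe sets, and their median difference was -0.03. Among 18 other replication genes 3 rose and 1 fell, among 41 other repair genes 1 rose and none fell, and among 10 other cohesin and condensin genes 1 rose and none fell. These counts use the brightest probe set of each gene. Dimmer probe sets of UBE2B were called lower (-1.34 and -1.70, limma adjusted p = 0.0315 and 0.0231), its brightest not (0.10). A dimmer probe set was called higher for NIPBL and for RECQL5 (1.38 and 1.19, limma adjusted p = 0.01 and 0.0222), their brightest not (0.43 and 0.19). Leaving out embryo array 1, 2 or 3, 3, 2 and 3 of the 69 were called higher and none lower, and with the embryo arrays averaged none was called in either direction.

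NASP, a chaperone of histones, read 376, 304 and 307 in embryos and from 6.22 in kidney to 52.4 in spleen, with a median of 29.1 in tissues, a difference of 1.99 ± 0.23 (SE, limma adjusted p = 0.000247). PTTG1, the securin that guards cohesin until anaphase, read 414, 490.1 and 474 in embryos and from 8.12 in brain to 219.6 in spleen, with a median of 39.8 in tissues, at 1.98 ± 0.35 (SE, limma adjusted p = 0.00575), and its adjusted p was 0.055 without the second embryo array and 0.0744 without the third and muscle. For both, as for PCNA and RRM2, spleen was the brightest tissue. NASP was under the lower quartile in all 7 tissues, with liver at 49.1 close to spleen. Of the 8 called among the 22 genes, 3 were brightest in spleen. CHEK1, a kinase of the replication checkpoint, read 369, 311 and 158 in embryos and from 15.4 in muscle to 72.0 in liver, with a median of 22.6 in tissues, at 1.72 ± 0.28 (SE, limma adjusted p = 0.00305), and its other probe set rose by 1.35 (limma adjusted p = 0.0206). NASP and CHEK1 were called in each of the 10 fits that left out 1 array.

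SSBP1, the single-strand binding protein of mitochondria, read 265, 325 and 260.4 in embryos and from 4.58 in lung to 160.2 in heart, with a median of 53.5 in tissues, at 1.54 ± 0.35 (SE, limma adjusted p = 0.0183). The call was lost with embryo array 1, 2 or 3 left out (adjusted p = 0.0946, 0.137 and 0.0736). Its other probe set averaged 108 over embryos and 117 over tissues (-0.06, limma adjusted p = 0.889), so the probe sets did not move together. RNASEH1, which removes RNA paired with DNA, read 183, 229 and 153 in embryos and from 29.4 in muscle to 123 in heart, with a median of 51.3 in tissues, at 0.94 ± 0.26 (SE, limma adjusted p = 0.0479). It was not called when kidney, liver, lung, muscle or embryo array 1, 2 or 3 was left out (adjusted p = 0.0771, 0.0572, 0.0689, 0.0579, 0.178, 0.282 and 0.103). MCMBP, a binding partner of MCM proteins, was the gene that fell: it read 133, 206 and 230.2 in embryos and from 259.8 in spleen to 546 in heart, with a median of 444 in tissues, at -0.89 ± 0.24 (SE, limma adjusted p = 0.0475). All 3 of its embryo values lay under every tissue, and the call held without lung or spleen and was lost in the other 8 fits that left out 1 array (adjusted p from 0.0624 without liver to 0.243 without the first embryo array).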

How the data were processed

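For each array the authors deposited linear intensities, 1 for a probe set, and per the labels bovine total RNA was hybridised across species. Their software, background correction and scaling were not stated. The table lists 22283 probe sets, 10219 with values throughout and 12064 blank throughout, for reasons not stated; 33 manufacturer's controls were left out. Symbols came from the platform annotation: 8847 probe sets had 1 symbol, 479 several and 860 none. All 49 symbols are in the bovine RefSeq table. No genome build goes with the values, so no coordinates are given, and no sequences or promoter motifs were examined.

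Trimmed means (2%) of the arrays differed 1.90-fold, so arrays were quantile normalized, and log2(intensity + 71) was taken, 71 being the arrays' median 25th percentile as deposited. All 10186 probe sets were fitted without a filter with limma 3.58.1 in R 4.3.3 (eBayes with trend and robust, two-sided, Benjamini-Hochberg, threshold 0.05): embryos against tissues with 8 residual degrees of freedom, and 8 groups with 2. The number of arrays limits the precision. Methods were tested on simulated data in which every array, embryos included, was drawn independently with the spread between tissues. The real embryo arrays lie closer together, so that test does not vouch for the p-values here. Members and lists were chosen with earlier results of these data known. Genes given in full were all those called, up to 2 per role, the other members in turn, and up to 5 called genes of each further pathway list; the members described beyond that rule were named after their values were seen. Figures used matplotlib 3.10.9 in Python 3.11.15.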

Additional observations from a re-analysis of the deposited data

Results flagged for a closer look

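Over the 7 tissue arrays, a gap test (Dixon's, at its 95% critical value) was applied to the log2 values of the 22 genes, and 3 had an array that stood apart. Chance marks about 1 in 20 groups of values drawn alike, but the 7 arrays are each of a different tissue, so that rate need not apply. No share of all probe sets is given for this test, so whether 3 of 22 is unusual was not tested. For RPA2 the liver array was apart, with 1095 against 159 in the next tissue and a gap of 0.818 of the whole range. For BRCA1 the brain array was apart, with 8.06 against 171 in the next tissue and a gap of 0.814. For GINS2 the liver array was apart, with 206 against 42.1 in kidney and a gap of 0.69.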

How the results depend on the processing

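Every alternative run kept the sign of each of the 8 called genes. The 22 genes changed sign in 2 cases: RPA2, -0.36 to 0.12 over leave-outs and above 0 without liver, and RAD21 to 0.14 with the mean of its probe sets. Each case was not past the threshold before or after. The count of the 22 genes called higher, 8, became 0 with averaged embryo arrays and 5 without the third embryo array and muscle (added after seeing the data). Leaving out single arrays gave 3 to 8. With exact permutation the count was 0, but no probe set could pass in that test. Under the filter at the 75th percentile the count was 5, with 9 of the 22 genes kept. Both filters ask for 3 arrays, as many as there are embryo arrays, so a gene can pass on embryo values alone. MSH6, RFC4, XRCC5 and PCNA passed the stricter filter in that way, so counts under the filters are no further support. The lower count of the 22 genes, 0, became 3 with the mean of the 8-group contrasts (GINS2, RFC1 and POLE) and stayed 0 in all leave-outs. With that mean RPA1, DUT and RAD50 were also called higher, beside the 8. Over all probe sets, 556 higher and 179 lower became 1735 and 2375 with the 8-group mean, 3 and 0 averaged, 0 and 0 with exact permutation (884 probe sets were at its smallest p), and 283 and 35 without the third embryo array and muscle; lower calls were 293 with no offset, 85 with an offset 4 times larger and 112 with probe sets of a gene averaged. Leave-outs gave 170 to 587 higher and 32 to 220 lower, with 203, 170 and 328 higher and 45, 32 and 43 lower for embryo arrays 1, 2 and 3. Embryos above every tissue held for 9 to 11 genes in leave-outs, and below every tissue for 0 to 2, with no share of all probe sets given for them. Pairs of gene and tissue called lower were 9 at a common median, and in leave-outs pairs were 3 to 67 higher and 2 to 6 lower. Genes brightest in brain, liver and lung were 3, 5 and 0 as deposited. Other pathway genes, 5 higher and 1 lower, were 14 and 17 with the 8-group mean, 0 and 0 averaged or permuted, 2 and 0 without the third embryo array and muscle, 3 and 2 with no offset, 3 higher under the stricter filter, 2 lower under the filter at the median or by the widest spread, and 0 lower as deposited, without trend and robust or with the larger offset; leave-outs gave 2 to 6 and 0 to 1. The cause of these shifts was not tested, apart from fewer genes or arrays where an alternative removes them. The promoter motifs were not run. No paired analysis was possible because each tissue has a single array, so the groups compared share fewer than 2 replicate numbers.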
